A study of Mus musculus with 4 samples.

Results

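Leukocyte surface antigens, cytokine receptors and innate immune receptors were taken from the deposited H3K9ac table by gene symbol: Cd antigens, interleukin, colony-stimulating factor and interferon receptors, the TNF receptor superfamily, toll-like and chemokine receptors, integrins, C-type lectins, siglecs, Fc receptors and Ms4a genes. The pattern gave 78 of the 9615 genes of the table, after Cd47, Csf1r and Ms4a6c were left out by rule. H3K9ac, acetylation of histone H3 at lysine 9, was measured by ChIP-seq in leukaemic bone marrow. Both H3K9ac libraries came from mice with floxed Gfi1b (Gfi1b(fl/fl)) and the NUP98/HOXD13 fusion transgene (Nup98(tg)), a model of myelodysplasia and acute myeloid leukaemia. The first, which the submitters call WT, had no Mx-Cre (MxCre(wt)), so that it too is leukaemic and transgenic; the second, called tg, carried Mx-Cre (MxCre(tg)). Mx-Cre is a recombinase under an interferon-responsive promoter and serves to delete the floxed gene in blood cells and in other tissues that respond to interferon. The sources used here do not state whether and when Cre was induced, how old the mice were or how many animals made up a library. Each genotype had 1 H3K9ac library, so no difference below has a replicate check and "higher" and "lower" describe these 2 libraries.

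These receptors let blood cells sense microbes, cytokines and neighbouring cells. Cytokine receptors pair ligand-binding and signal-transducing chains and act through JAK kinases and STAT factors. Toll-like receptors signal through MYD88 to NF-kappaB, integrins hold cells to matrix and endothelium, and many C-type lectins and siglecs signal through tyrosine-based motifs bound by SYK or by phosphatases. H3K9ac marks active promoters and enhancers. GFI1B, the factor whose gene is floxed, is a repressor that works with the demethylase LSD1 and histone deacetylases.

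The deposited values are log2 values of reads per probe scaled to 1000000 reads, averaged over the probes of a gene. The totals behind the scale were 309649 reads in WT and 163712 in tg. Reads could be recovered for each of the 78 members. Of these, 63 had 1 probe and 15 had 2 to 4 probes. For the median member these were 22 in WT and 8 in tg. Where no read was found, up to 3 reads remain possible, or 9.69 scaled reads in WT and 18.3 in tg. Folds are given on summed reads with exact 95% intervals that cover counting error only; without molecular identifiers, reads cannot be taken as separate molecules. The table has no probe positions and no probe lengths, so a value belongs to a gene and not to a promoter, and a level is set against the median of all genes only to mark weakly covered members.

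The promoters of these genes were poor in CpG dinucleotides, the sequence feature of promoters active in most cell types. RefSeq (GRCm38.p6) gave promoter sequence for 65 of the 78 members. In the 250 bases before the first listed start, the median member had 7 CpG, and 54 of the 65 (83.1%) lay below the median of 17 over the 6657 genes of the table with a promoter entry. The median was 4 CpG for the 9 members at least 2-fold higher in tg that had an entry, 6 for the 23 at least 2-fold lower and 10 for the 33 others. The first listed start is that of lowest coordinate, so for a minus-strand gene with several starts it is the most downstream one. Cd82, a higher member on the minus strand, had 3 CpG there and 11, 12 and 14 before its other starts. The median of the few higher members thus depends on the start used. The 5 upstream stretches below are shown because they span this range among genes that the results turn on: Cd59a, the member with the highest ratio, Ms4a6b and Tlr2, near the lowest, and both chains of the interferon gamma receptor. CpG is in capitals, and each ends at the base before the start.
Cd59a, chr2:104095551-104095800, plus strand: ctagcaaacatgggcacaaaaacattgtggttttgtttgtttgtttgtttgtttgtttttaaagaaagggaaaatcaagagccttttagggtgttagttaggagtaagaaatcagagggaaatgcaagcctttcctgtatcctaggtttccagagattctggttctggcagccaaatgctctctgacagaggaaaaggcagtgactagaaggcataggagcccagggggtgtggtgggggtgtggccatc
Ms4a6b, chr19:11518309-11518558, plus strand: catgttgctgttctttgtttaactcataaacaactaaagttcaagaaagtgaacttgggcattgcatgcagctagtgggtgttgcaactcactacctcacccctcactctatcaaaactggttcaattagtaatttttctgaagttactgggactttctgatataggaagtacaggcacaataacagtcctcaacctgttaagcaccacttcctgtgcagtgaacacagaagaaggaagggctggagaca
Tlr2, chr3:83841609-83841858, minus strand: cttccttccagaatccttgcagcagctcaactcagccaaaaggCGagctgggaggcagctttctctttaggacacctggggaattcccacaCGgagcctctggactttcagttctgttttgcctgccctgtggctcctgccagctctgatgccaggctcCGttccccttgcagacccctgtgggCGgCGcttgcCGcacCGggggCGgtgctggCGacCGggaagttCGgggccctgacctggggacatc
Ifngr1, chr10:19591699-19591948, plus strand: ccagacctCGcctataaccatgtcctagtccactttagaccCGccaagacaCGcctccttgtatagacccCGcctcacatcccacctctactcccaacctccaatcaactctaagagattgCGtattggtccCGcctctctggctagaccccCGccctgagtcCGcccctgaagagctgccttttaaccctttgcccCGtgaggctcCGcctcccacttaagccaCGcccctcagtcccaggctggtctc
Ifngr2, chr16:91546809-91547058, plus strand: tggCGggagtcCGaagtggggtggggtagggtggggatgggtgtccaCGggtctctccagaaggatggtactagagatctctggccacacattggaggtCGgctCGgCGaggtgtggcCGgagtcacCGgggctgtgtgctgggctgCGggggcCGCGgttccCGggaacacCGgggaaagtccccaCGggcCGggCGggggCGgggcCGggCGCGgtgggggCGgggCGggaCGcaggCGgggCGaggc
Cd59a and Ms4a6b had 0 CpG here, Tlr2 and Ifngr1 had 11 each and Ifngr2 had 25. These 5 genes were picked to span the range, so no relation of CpG content to ratio can be read from them.

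Sequence motifs of blood cell factors were looked for on both strands of the 250 bases before every listed start of a gene, of which 9 members have several: GAGGAAGT, a form of the PU.1 site, and AGATAA, a form of the GATA site. The first was found in 3 of the 65 members (4.62%) and in 3.11% of the genes of the table. The second was found in 5 members (7.69%) and in 6.87% of the genes of the table. Among members beyond 2-fold, the PU.1 type was in Cd82 (higher in tg) and Itgav (lower), and the GATA type in Tlr9 (lower). Their 30-base stretches are shown with the motif in capitals. In Itgav and Tlr9 it reads on the opposite strand, and in Cd82 it lies before a listed start other than the first.
Cd82, chr2:93462058-93462087, minus strand: ggttccagaagGAGGAAGTtgattgagatg
Itgav, chr2:83724367-83724396, plus strand: tgggaggccaccgtgagcgcgACTTCCTCt
Tlr9, chr9:106222493-106222522, plus strand: gggttgagggggTTATCTgtctgccatctg
The share of members with either motif was close to that of the table. A match of letters is no measured binding site.

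In tg, 25 of the 78 members had a level lower by 2-fold or more and 13 a level higher by 2-fold or more. The share over all genes was 15.8% lower and 16.5% higher. The members' share was 32.1% lower and 16.7% higher, so that their higher share was near that of all genes. Their median log2 ratio was -0.27, and that of all genes was 0.05. By the counting interval of summed reads, 22 members lay below equality and 13 above it, where 12.7% and 12.8% of all genes with recovered reads did so. The interval left out equality for 19 of the 25 lower members and for 9 of the 13 higher ones. Of the 25 lower members, 18 had a mean level under the median of all genes, as had 9 of the 13 higher ones. Of the 1522 genes of the whole table that were 2-fold lower, 519 were at or above that median. At 3-fold, 20 members were lower and 5 higher, against 7.99% and 8.49% of all genes. Among the 31 members whose mean level over both libraries reached the median of all genes, 7 were 2-fold lower and 4 higher (22.6% and 12.9%), against 10.8% and 10.2% of all genes at that level.

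**Figure D1:**
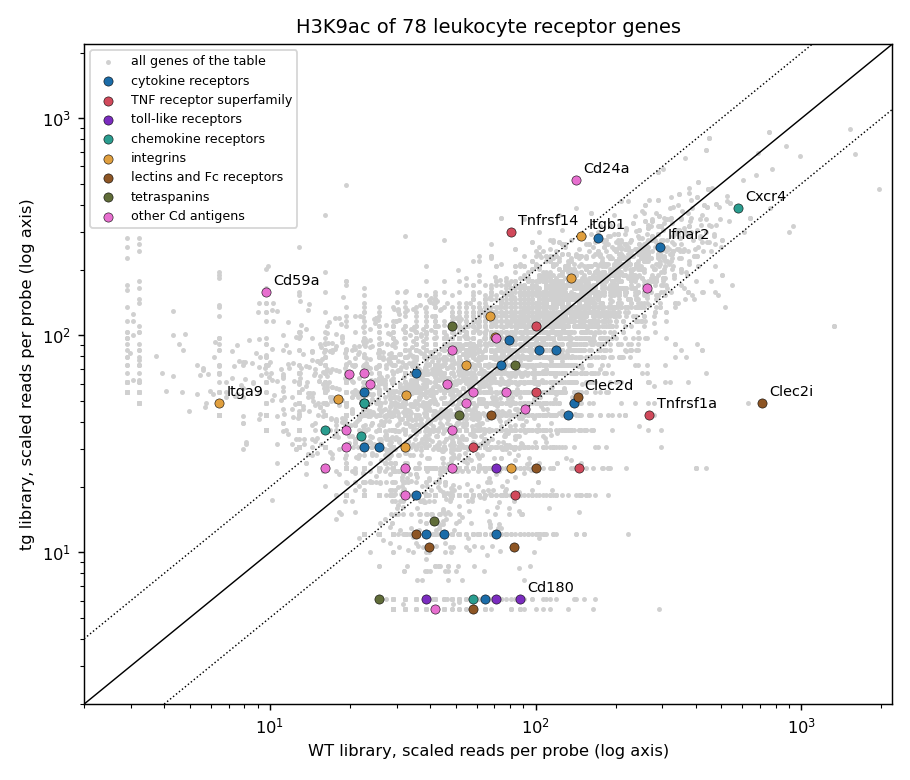
Scaled H3K9ac reads per probe (geometric mean where a gene has several probes) in the WT library (x axis) and the tg library (y axis), both on log axes, for the 78 members coloured by role and all 9615 genes in grey; the solid line is equality and the dotted lines are 2-fold. Cd59a, Tnfrsf14 and Cd24a lie above the upper dotted line, and Clec2i, Tnfrsf1a and Cd180 lie below the lower one.

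All 4 toll-like receptor genes (with the related Cd180) and 7 of the 8 lectin, Fc receptor and Ms4a genes were 2-fold lower in tg, and 0 of either group were 2-fold higher. Cytokine receptors had 6 of 18 lower and 2 higher, and the TNF receptor superfamily 3 of 7 lower and 1 higher. Integrin rows (1 of 10 lower, 2 higher) were centred above equality, with a median log2 ratio of 0.60. Of these 10, 2 are genes of integrin-binding proteins. The remaining Cd antigens (1 of 21 lower, 5 higher) had a median of 0.35, which is the value of Cd48. By summed reads the log2 ratio of Cd48 was -0.30. Of these 21, 11 lay above 0 (52.4%, against 51.8% of all genes), so they were not clearly centred on either side. These counts are a description of 2 libraries, and no test compared one role with another.

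**Figure D2:**
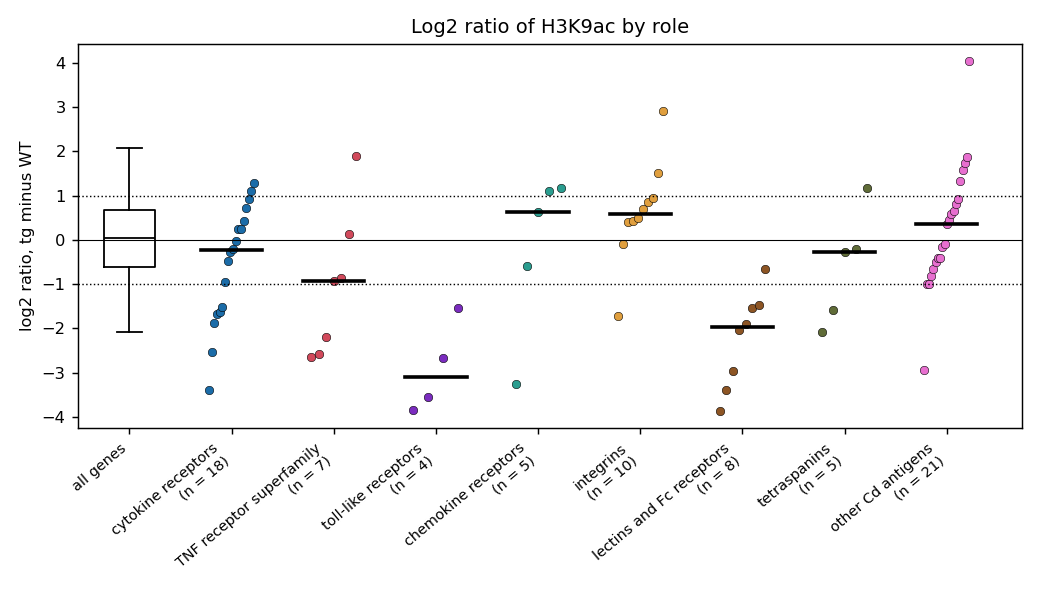
Log2 ratio of deposited values, tg minus WT, for each member by role (points), with the median of the role as a bar; the box shows all genes of the table (quartiles, whiskers at percentiles 5 and 95) and dotted lines mark 2-fold. The toll-like receptor and lectin groups have medians of -3.10 and -1.97, and the integrins one of 0.60.

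Markers of some lineages differed between the libraries too. Of 23 listed erythroid markers 14 had a row. In tg, 13 of these 14 were 2-fold higher and 0 lower, and the summed level of the 13 with recovered reads was 843 scaled reads in WT and 3445 in tg. Of 11 listed monocyte and macrophage markers 7 had a row, and 5 of these were 2-fold lower and 0 higher (2383 and 391 scaled reads). Of 15 listed neutrophil markers only 3 had a row, and these 3 were lower (197 and 24.4). Of 12 listed megakaryocyte and platelet markers 5 had a row, with 2 higher and 2 lower (median log2 ratio -0.27). Of 8 listed B cell markers 2 had a row, with 0 beyond 2-fold (median 0.29). Epor, Rhag and Alas2 had 0 reads in WT, while none of these monocyte or neutrophil markers was at 0 in either library, Mpo and Cebpa being at 1 read in tg. Epor, Rhag and Alas2 have 1 probe each and a row only through their tg reads, so these zeros depend on which genes have a row. In bulk marrow, fewer cells of a type and less acetylation per cell cannot be told apart, and the part of cell composition in the receptor results was not tested. None of 9 T and NK cell markers had a row, so that lineage was checked by Cd3d and Cd3e alone (10 and 6 reads in WT, 4 and 6 in tg).

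The toll-like receptor genes with a row had few H3K9ac reads in tg. Tlr2, which senses bacterial lipoproteins (chromosome 3, 83836273 to 83841767), held 22 WT reads and 1 tg read and was 11.6-fold lower (1.88 to 480). Its partner gene Tlr6 had 22 and 4 reads, 2.91-fold lower (0.988 to 11.6). Both genes of this heterodimer were thus low in tg, although the interval of Tlr6 just includes equality. Tlr9, the endosomal sensor of unmethylated CpG DNA, had 12 and 1 reads, and its interval includes equality as well (6.34-fold lower, 0.939 to 271). Cd180, a toll-like receptor relative of B cells and myeloid cells that lacks the signalling domain, had 27 and 1 reads, 14.3-fold lower (2.35 to 584). With 7 tg reads over the 4 genes together against 83 in WT, the size of each ratio is loosely bound. All 4 have 1 probe, and no 1-probe gene with a row had fewer than 9 reads over both libraries. These 4 thus have a row only through their WT reads, so their low tg values depend on which genes have a row.

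Downstream of these receptors the listed signalling genes did not share one direction. Of 30 listed toll-like receptor signalling genes 26 had a row. Of these, 7 were 2-fold lower and 3 higher (26.9% and 11.5%, against 15.8% and 16.5% of all genes), with a median log2 ratio of -0.47. The adaptor genes Myd88 (19 and 36 reads, 3.58-fold higher, 2.002 to 6.61) and Tirap (8 and 20 reads, 4.73-fold, 1.995 to 12.4) were higher. A further adaptor gene, Ticam1, was within 2-fold (log2 ratio 0.49). The NF-kappaB subunit genes Rel (104 and 13 reads, 4.23-fold lower, 2.37 to 8.21) and Relb (27 and 3, 4.76-fold, 1.46 to 24.5) were lower. The other subunit genes Nfkb1, Rela and Nfkb2 were within 2-fold, with log2 ratios of 0.08, 0.05 and -0.74. By summed reads Rela was 1.89-fold lower (1.23 to 2.98). Unc93b1, which carries endosomal toll-like receptors from the endoplasmic reticulum, was lower (14 and 1 reads, 7.40-fold, 1.13 to 313). Chuk, an IKK kinase gene, was 3.78-fold higher (2.09 to 7.08), while the related Ikbkb was 2.58-fold lower (1.25 to 6.02). The adaptor genes Myd88 and Tirap thus went against the direction of the receptor genes.

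Of the 18 cytokine receptor genes, the 6 lower ones included 1 chain each of the receptors for GM-CSF, interleukin 10 and interleukin 1. Csf2ra, the ligand-binding chain of the GM-CSF receptor (chromosome 19, 61224402 to 61228418), held 20 WT reads and 1 tg read and was 10.6-fold lower (1.69 to 438). Csf2rb, the shared signalling chain, had 8 and 5 reads, a ratio of 1.18 (0.304 to 4.10). The alpha chain was low in tg and the beta chain was sparsely covered in both. Il10ra, the specific chain of the interleukin 10 receptor, had 22 and 2 reads, 5.82-fold lower (1.43 to 51.0), whereas Il10rb, a chain it shares with other receptors, had 53 and 46 reads and was 1.64-fold higher (1.08 to 2.48). For interleukin 1, the receptor gene Il1r1 had 14 and 2 reads (3.70-fold lower, 0.850 to 33.6), and its accessory protein gene Il1rap had 11 in each library (1.89-fold higher, 0.744 to 4.81). Both intervals of the interleukin 1 pair include equality. The intervals of the paired chains overlap for GM-CSF and interleukin 1 and not for interleukin 10, and differences between chains were not tested. Csf3r, the G-CSF receptor of the neutrophil lineage, had 12 and 2 reads (3.17-fold lower, 0.706 to 29.2).

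Both chains of the interferon gamma receptor and of the interferon alpha and beta receptor had a row. The chains of the interferon gamma receptor were lower in tg: Ifngr1 (chromosome 10, 19591949 to 19610229) held 43 WT and 8 tg reads and was 2.84-fold lower (1.32 to 7.00), and Ifngr2 had 41 and 7 reads, 3.10-fold lower (1.38 to 8.18). The chains of the interferon alpha and beta receptor were nearer to equality. Ifnar2 had 91 and 42 reads, a ratio of 0.873 (0.591 to 1.27), and Ifnar1 had 23 and 12 reads, a ratio of 0.987 (0.447 to 2.07). Ifnar2, Il10rb, Ifnar1 and Ifngr2 are neighbours in 192 kb of chromosome 16 (91372783 to 91565169), and of these 4 genes Ifngr2 was the one beyond 2-fold. The counting intervals of the gamma receptor genes overlap those of the alpha and beta receptor genes, and the difference between the receptors was not tested. Il10rb has the same values as the overlapping model RP23-190G10.4.

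**Figure D3:**
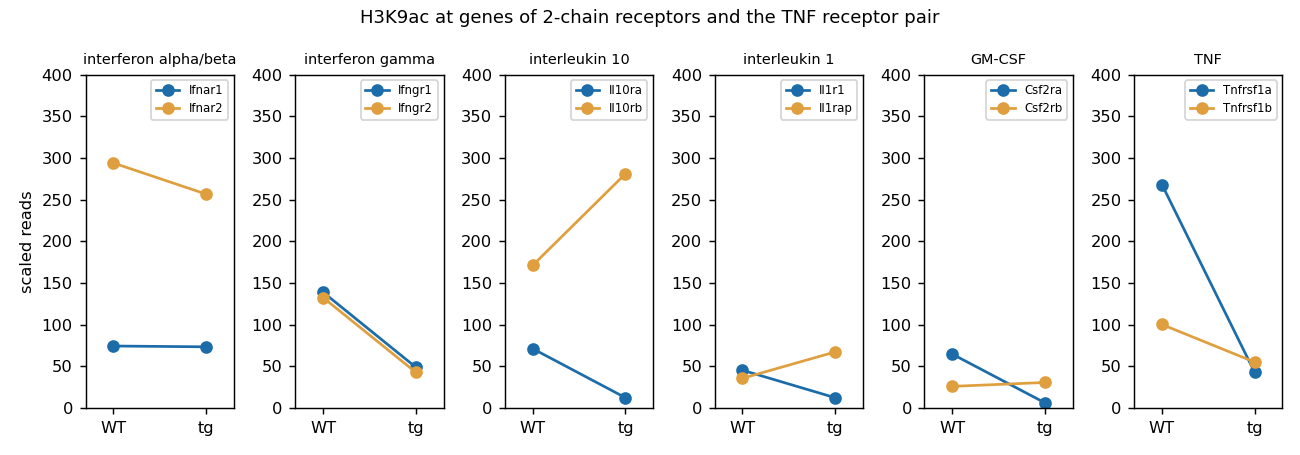
Scaled H3K9ac reads (y axis, linear from 0) in the WT and tg libraries for pairs of receptor genes, 1 library per point. Ifngr1 and Ifngr2 both lie lower in tg, Ifnar1 and Ifnar2 have ratios of 0.987 and 0.873, and Il10ra and Il10rb go in opposite directions.

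Among the other cytokine receptor genes, Il17rc (7 and 8 reads) and Il20ra (7 and 9), both better known from epithelia, were 2-fold higher with intervals that include equality (2.16-fold, 0.685 to 7.00, and 2.43-fold, 0.806 to 7.68). Another gene, Creld1, starts in or within 1000 bp of Il17rc. Il17ra, the widely expressed interleukin 17 receptor chain, had 37 and 14 reads and a ratio of 0.716 (0.357 to 1.36). Il11ra1 had 76 and 49 reads over 3 probes and a ratio of 1.22 (0.834 to 1.77), with 5 other genes starting in or near it. The 3 cytokine receptor members not yet described, Il4ra, Il15ra and Il17rd, had log2 ratios of -0.27, -0.95 and 0.43. Of 27 listed cytokine signalling genes 23 had a row. Of these, 4 were 2-fold lower and 3 higher (17.4% and 13.04%), shares near those of all genes. Jak3, the kinase of receptors with the common gamma chain, had 22 and 1 reads (11.6-fold lower, 1.88 to 480), and Cish, a STAT5 target that dampens cytokine signals, had 30 and 49 (3.09-fold higher, 1.92 to 5.04). Jak2, which signals for the GM-CSF and erythropoietin receptors, had 41 and 18 reads and a ratio of 0.830 (0.449 to 1.48).

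In the TNF receptor superfamily, the death domain receptor gene Tnfrsf1a (TNF receptor 1; chromosome 6, 125349362 to 125362484) held 83 WT and 7 tg reads and was 6.27-fold lower (2.91 to 16.1). Tnfrsf13b, which encodes TACI, a receptor for BAFF and APRIL, had 45 and 4 reads, 5.95-fold lower (2.17 to 22.8). Tnfrsf21, which encodes death receptor 6, had 26 and 3 reads, 4.58-fold lower (1.40 to 23.7). The exception was Tnfrsf14, which encodes the herpesvirus entry mediator, a receptor for LIGHT and BTLA (chromosome 4, 154922210 to 154928563): its 25 WT and 49 tg reads made it 3.71-fold higher (2.25 to 6.26). Tnfrsf1b (TNF receptor 2) had 31 and 9 reads and a ratio of 0.549 (0.230 to 1.18), Cd27 had 18 and 5 (0.525, 0.152 to 1.47), and Tnfrsf9, which encodes 4-1BB, had 31 and 18 (1.10, 0.579 to 2.03). Intervals of these last 3 include equality, so a difference was not detectable at this depth. Of 18 listed genes of TNF receptor signalling 14 had a row. Of these, 3 were 2-fold lower and 1 higher (21.4% and 7.14%, against 15.8% and 16.5% of all genes), with a median log2 ratio of 0.03. Birc3, an inhibitor of apoptosis that binds TRAF2, had 10 and 0 reads. Traf2 itself had 21 and 15 reads (ratio 1.35, 0.648 to 2.75).

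Lectin, Fc receptor and Ms4a genes were lower in tg in 7 of 8 cases by the 2-fold rule, or in 5 of 6 without Clec11a and Clec16a, which encode no leukocyte receptor. Clec2i, a ligand of NK cell lectin receptors (chromosome 6, 128887588 to 128898167), held 220 WT and 8 tg reads and was 14.5-fold lower (7.25 to 34.1), with values identical to those of its neighbour BC035044. Clec2d, a second such ligand gene, had 191 and 27 reads, 3.74-fold lower (2.49 to 5.82). Its taller probe held 180 and 24 of these reads and its lower probe 11 and 3. Clec12a, an inhibitory receptor of myeloid cells, had 25 and 4 reads (3.30-fold lower, 1.14 to 13.1). The 3 genes lie in 478 kb of chromosome 6, and all were lower. Cd93, a lectin-like receptor of myeloid and progenitor cells and endothelium, had 57 and 4 reads over 2 probes, 7.53-fold lower (2.79 to 28.6). Ms4a6b, a 4-span membrane protein gene, had 18 and 0 reads, at least 3.17-fold lower against the floor of 3 tg reads. Its exact interval, which also covers error in the WT reads, begins at 2.32-fold lower. The Ms4a6 genes are close relatives, and the sources used here do not say how reads with several matches were treated. Fcer1g, the shared gamma chain of Fc receptors, was the member within 2-fold (21 and 7 reads, ratio 0.630, 0.226 to 1.54).

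The symbol pattern also took genes that encode no leukocyte receptor, 7 by a list made after their values were seen. Clec11a, a secreted growth factor of the lectin family, had 31 and 4 reads (4.10-fold lower, 1.45 to 16.0), and Clec16a, an endosomal protein, had 11 and 2 (2.91-fold lower, 0.635 to 27.0). The other 5 were the adaptor and nuclear protein genes Cd2ap, Cd2bp2, Cd3eap, Itgb1bp1 and Itgb3bp, all within 2-fold, with log2 ratios from -0.50 (Cd2ap) to 0.71 (Itgb3bp). Without these 7, 23 of 71 members were 2-fold lower and 13 higher.

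Many listed genes of the pathway below the lectin and Fc receptors were lower in the same library. Of 23 listed genes 18 had a row. Of these, 11 were 2-fold lower (61.1%, against 15.8% of all genes), 7 within 2-fold and 0 higher, with a median log2 ratio of -1.35. Inpp5d (43 and 32 reads, ratio 1.41, 0.862 to 2.28) and Card9 (7 in each library, 1.89, 0.566 to 6.32) were among those within 2-fold. Syk, the kinase that binds phosphorylated receptor tails, had 43 and 4 reads (5.68-fold lower, 2.07 to 21.8). Tyrobp, which encodes the adaptor DAP12, had 45 and 9 (2.64-fold lower, 1.28 to 6.15). The phosphatase gene Ptpn6, which encodes SHP-1 and acts for the inhibitory receptors, had 25 and 4 reads (3.30-fold lower, 1.14 to 13.1; it shares its values with Gm20531). Genes that pass on activating signals and genes that pass on inhibitory ones were thus both among the lower ones.

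Chemokine receptors were few and mostly sparse. Ccr1, a receptor of monocytes and neutrophils for inflammatory chemokines, had 18 and 1 reads, 9.52-fold lower (1.503 to 397). Cxcr4, which holds stem and progenitor cells in the marrow by binding CXCL12 (chromosome 1, 128588199 to 128592293), had 179 and 63 reads and was 1.502-fold lower (1.12 to 2.04), within 2-fold but with an interval below equality. Cxcr5 (5 and 6 reads) and Ccr9 (7 and 8 reads), lymphoid homing receptors, were 2-fold higher by ratio, with intervals of 0.577 to 9.40 and 0.685 to 7.00 that include equality. Ccr9 has the same values as Lztfl1, a gene of ciliary transport that starts within its interval, so the 2 genes cannot be told apart here. Cx3cr1 had 25 and 19 reads over 3 probes (ratio 1.44, 0.748 to 2.72), and 3 other genes start in or near it. Of 23 listed chemokine signalling genes 19 had a row. Of these, 7 were 2-fold lower and 2 higher (36.8% and 10.5%, against 15.8% and 16.5% of all genes). Dock2, a Rac activator needed for leukocyte migration, had 13 and 1 reads (6.87-fold lower, 1.03 to 292). Gnai2, the G protein alpha subunit of these receptors, had 70 and 30 (ratio 0.811, 0.510 to 1.26).

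Of the 8 integrin genes, without the binding protein genes Itgb1bp1 and Itgb3bp, 6 had a log2 ratio above 0 and 2 were at least 2-fold higher. Over all genes of the table, 51.8% had a log2 ratio above 0. Itgb1, the beta chain of the VLA integrins (chromosome 8, 128685654 to 128733200), had 46 and 47 reads, 1.93-fold higher (1.26 to 2.97). Its partner Itga4, which with it binds VCAM1 in the marrow niche and in erythroblastic islands, had 92 and 54 reads over 2 probes and a ratio of 1.11 by summed reads (0.778 to 1.57), with a deposited log2 ratio of 0.87. Itga5, the fibronectin receptor alpha chain, had 42 and 30 reads (1.35, 0.816 to 2.21). Itga9, another partner of the beta 1 chain, had 2 and 8 reads, 7.57-fold higher, with an interval of 1.51 to 73.1. Itgav, the alpha chain of the vitronectin receptors, went the other way, with 25 and 4 reads (3.30-fold lower, 1.14 to 13.1). Itgae had 25 and 34 reads over 4 probes (2.57-fold higher, 1.49 to 4.50), and Itga1 44 and 38 over 2 probes (1.63-fold higher, 1.03 to 2.58), but Haspin starts in or near the first and Pelo in or near the second. Itgb2, the beta chain of the leukocyte integrins, had 10 and 5 reads, a ratio of 0.946 (0.254 to 3.04). Of 22 listed integrin activation genes 16 had a row. Of these, 4 were 2-fold lower and 1 higher (25% and 6.25%, against 15.8% and 16.5% of all genes), with a median log2 ratio of -0.69. Skap2, an adaptor of integrin activation in myeloid cells, had 229 and 26 reads (4.66-fold lower, 3.10 to 7.28), while Fermt3, which encodes kindlin-3, had 43 and 29 (ratio 1.28, 0.768 to 2.09). Parvg, the higher gene, had 29 and 30 reads over 2 probes (1.96-fold higher by summed reads, 1.13 to 3.38) and a log2 ratio of 2.30.

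The Cd antigens that were higher in tg included 3 membrane regulators of complement, a grouping made after their values were seen. Complement regulators outside the symbol pattern were not looked up. Cd59a, which blocks the membrane attack complex (chromosome 2, 104095801 to 104115354), held 3 WT and 26 tg reads and was 16.4-fold higher (5.02 to 84.6). Cd55, the decay-accelerating factor, had 7 and 11 reads, 2.97-fold higher (1.05 to 9.04), with the same values as its neighbour Gm16083. Cd46, a cofactor of complement inactivation, had 21 and 22 reads over 2 probes, 1.98-fold higher by summed reads (1.04 to 3.79) and with a log2 ratio of 1.33. Over the 3 genes WT had 31 reads and tg 59, a direction fixed by how the genes were grouped. Erythroid markers were higher in the same library, as given above, and their part in these values was not tested.

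Cd24a, the heat stable antigen of erythroid, B lineage and granulocytic precursors (chromosome 10, 43579169 to 43584262), had 44 and 85 reads, 3.65-fold higher (2.51 to 5.38). Cd97, an adhesion G protein-coupled receptor, had 21 and 24 reads over 2 probes, 2.16-fold higher by summed reads (1.15 to 4.08) and with a log2 ratio of 1.74. At the low end, the progenitor antigen gene Cd34 had 13 and 0 reads, at least 2.29-fold lower against the floor of 3 tg reads, while its exact interval begins at 1.61-fold lower, short of 2-fold. Cd44, the hyaluronan receptor, had 60 and 15 reads, 2.11-fold lower (1.19 to 4.01) by summed reads, and its deposited log2 ratio of -0.999 was just short of 2-fold. Cd164, a sialomucin of progenitors, had 81 and 27 reads (1.59-fold lower, 1.01 to 2.55). Cd274, which encodes the checkpoint ligand PD-L1, had 45 and 32 reads (ratio 1.35, 0.827 to 2.16), and Cd48, a ligand of 2B4, had 56 and 24 (0.811, 0.480 to 1.33). The last 2 did not differ beyond counting error. Cd163, Cd1d1, Cd200r1, Cd300a, Cd302, Cd3d, Cd3e and Cd52 lay between log2 ratios of -0.99 and 0.92, with intervals that include equality.

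Tetraspanins, which organise receptors in membrane domains, did not share a direction. Cd53, a tetraspanin of leukocytes, had 44 reads in WT (6, 17 and 21 over its 3 probes) and 7 in tg (2, 2 and 3), 3.32-fold lower (1.49 to 8.74). Cd82 had 15 and 18 reads, 2.27-fold higher (1.08 to 4.84), with the same values as Gm10804. Cd9 had 8 and 1 reads (4.23-fold lower, 0.567 to 188), Cd37 26 and 12 (ratio 0.873, 0.401 to 1.79) and Cd151 16 and 7 (0.827, 0.288 to 2.13).

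**Figure D4:**
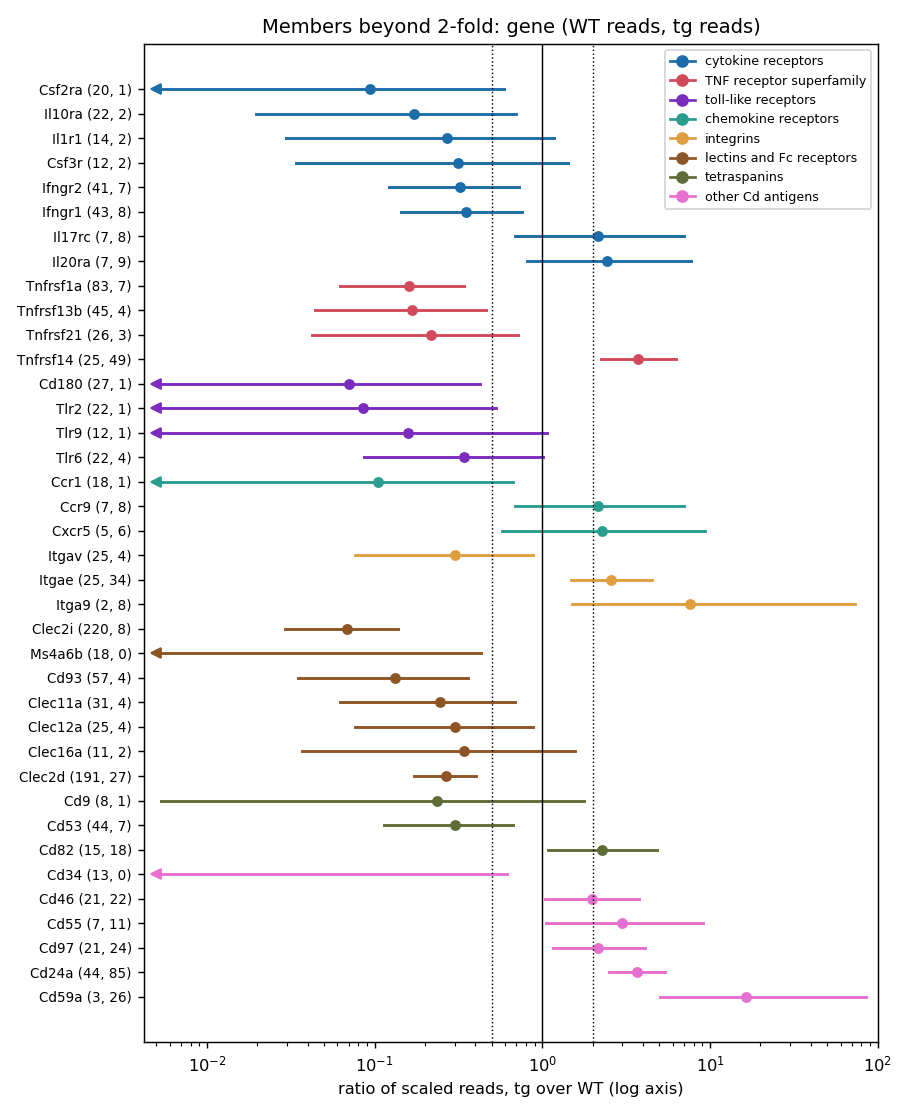
Ratio of scaled summed reads, tg over WT (x axis, log), with the exact 95% counting interval for the 38 members beyond 2-fold by the deposited log2 values, ordered by role, with WT and tg reads in brackets; arrows mark intervals that run below the axis, and Ms4a6b and Cd34, with 0 tg reads, have no point. The intervals of 10 of the 38 cross the line at 1.

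Some members share their interval with another gene. In 9 of the 78 members another protein-coding gene with a RefSeq promoter entry starts within the gene or 1000 bp of it; 3 of these were 2-fold higher, 1 was lower, and their median log2 ratio was 0.63. In the other 69 members 24 were 2-fold lower and 10 higher, with a median of -0.48. Values identical to those of a gene within 100000 bp were found for 7 members.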

How the data were processed

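H3K9ac and rabbit IgG ChIP-seq libraries were made from leukaemic bone marrow of both genotypes, 4 samples in 4 groups of 1. The deposited table matched the H3K9ac libraries by the codes in its column names; the IgG libraries were not analysed here. Per the submitters' processing notes, CASAVA 1.8.2, BWA, SAMtools and FastQC and the builds mm10 and GRCm38 were used. How probes were placed and whether duplicates were removed is not stated in these sources. The deposited values are log2 values, per gene the mean and standard deviation over probes, per the file headers; the scale was inferred. For 100% of 7423 genes with 1 probe, linear values were whole multiples of 1 step per library within 0.01 of a read, with 0 reads entered as 0.9. Reads were recovered for 9492 genes (98.7%) with up to 4 probes, where exactly 1 set of whole numbers matched, by a procedure tested on simulated data.

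With 1 library per group no test was made. Ratios of summed reads carry exact conditional binomial (Clopper-Pearson) 95% intervals (SciPy 1.17.1, Python 3.11.15). Members and lists were chosen with earlier results of these data known. Members beyond 2-fold were named, and per role up to 4 others with the most reads; further members, such as partner chains, and the listed signalling genes given with values were chosen after their values were seen. Alternatives were summed reads, a level minimum, centring, a 3-fold rule, merging of neighbours and 0.5 added read.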

Additional observations from a re-analysis of the deposited data

How the results depend on the processing

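The count of members at least 2-fold lower in tg (25) and higher (13) was 26 and 12 with reads summed over probes. It was 28 and 13 with values centred on the median gene. Counting neighbours of identical values once left all 78 members in place, so that this setting could not change the counts. Restricting to the 31 members at or above the median level left 7 lower and 4 higher, or 22.6% and 12.9% in place of 32.1% and 16.7%; the cause was not tested. A 3-fold rule left 20 lower and 5 higher, against 7.99% and 8.49% of all genes. The median log2 ratio of -0.27 was -0.29 with summed reads, -0.32 centred and -0.20 at or above the median level. Leaving out the 9 members with another gene's start in or near them, a choice made after seeing the data, gave -0.48, with 24 lower and 10 higher; the cause was not tested. Cd46 and Cd44 changed sides of 2-fold with summed reads, as they did with 0.5 read added, and Cd300a, Cd44 and Il15ra with centring. None of the members beyond 2-fold turned direction under summed reads, centring or 0.5 added read. Summed reads could not turn the 1-probe members among them (21 lower and 10 higher), whose values they leave unchanged. Centring could not turn any, since it moves each log2 ratio by 0.045 only. No paired analysis was possible because each group has 1 library. Depth limits the ratios of the 8 members with 0 or 1 read in tg most. All 8, among them Ccr1, Csf2ra, Ms4a6b and Cd34, have 1 probe. No 1-probe gene with a row had fewer than 9 reads over both libraries. These members thus have a row only through their WT reads, and their low tg values depend on which genes have a row.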

Other observations

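In some members with several probes the point ratios of the taller and the lower probe lay apart. Their intervals overlap in the 4 members below, and the difference between probes was not tested. Probes are ordered by height within each library, since their positions are not given, so that the order need not pair the same probe. Cd48 had probes of 52 and 4 reads in WT and 19 and 5 in tg. Its taller probe was 1.45-fold lower in tg (0.841 to 2.59) and its lower probe 2.36-fold higher (0.509 to 11.9), and its deposited log2 ratio of 0.35 was opposite in sign to that of its summed reads (-0.30). Itga4 had a taller probe near equality (87 and 45 reads, ratio 0.978, 0.667 to 1.42) and a lower probe that was 3.40-fold higher (5 and 9 reads, 1.02 to 12.9), which together gave a log2 ratio of 0.87. In Cd97 the taller probe had a ratio of 1.69 (0.826 to 3.44) and the lower probe 6.62 (1.26 to 65.3). Itga1 showed the reverse, with the taller probe 2.19-fold higher (1.24 to 3.91) and the lower at 0.896 (0.357 to 2.08).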
